A study of Mus musculus with 12 samples.

Results

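The comparison was between the carcinoma cells and the macrophages of mouse cutaneous squamous cell carcinoma, over all 12 RNA sequencing libraries of the series. Its members are the 6 libraries of tumor epithelial cells and the 6 libraries of tumor macrophages, chosen by the table in which each library was deposited and joined by gene identifier. The tumors arose in FVB mice. The carcinoma cells were basal tumor cells sorted as positive for YFP (from the Rosa locus), CD49f and CD29, and 3 libraries held cells without and 3 libraries cells with the mScarlet reporter of TGF-beta signaling. The macrophages were sorted as CD45 and F4/80 positive, and 3 libraries held cells without and 3 libraries cells with the Fc epsilon receptor I alpha chain (FceRIa) on their surface. The labels give no age, no driver of the YFP allele, and nothing on whether replicates came from separate animals, so the p-values reflect the spread of these libraries alone, and that spread may be technical. Cell type, sort gate and count table coincide in these libraries and cannot be told apart in any difference given here. Sex-linked transcripts, given below, showed that the mix of sexes also differed between the cell types. The part of sex in the differences was not tested.

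Squamous carcinoma of the skin grows from keratinocytes, which are held to the basement membrane by laminin-binding integrins and to each other by desmosomes, and whose basal state is kept by the transcription factor p63. Tumor macrophages derive largely from monocytes that enter the tissue through chemokine receptors and depend on signaling through the CSF1 receptor. The cell types can signal to each other where one makes a ligand and the other its receptor, and growth factors of the EGF family, colony-stimulating factors, TGF-beta and chemokines are well-known ligands of this kind. TGF-beta is secreted in a latent form that anchoring proteins hold in place, and integrins can activate it from there.

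Levels are CPM, counts scaled to a common library total with TMM factors over the 12 libraries. The total count was between 27951632 and 35088897 in the carcinoma libraries and between 33704786 and 40041144 in the macrophage libraries. Libraries of the same cell type correlated at 0.982 to 0.999 (carcinoma) and 0.967 to 0.991 (macrophage) in log2(CPM + 1), and libraries of different cell types at 0.705 to 0.761, across genes, which are not independent replicates. Carcinoma replicates 1 and 3 were far more alike than any other replicates, their counts giving chi-squares of 2.97 (reporter-negative) and 1.62 (reporter-positive) for each degree of freedom, where other pairs within a group gave 43.1 to 138. The negative and the positive library of one replicate number deviated together within each cell type (correlation 0.566 to 0.839), so the 2 were summed, and tests compared 3 sums with 3 sums. Deviations were taken from the mean of a group's 3 libraries, so those of the much alike carcinoma replicates 1 and 3 both mirror replicate 2. For these 2 numbers the correlation cannot show that the negative and positive library belong together. Both macrophage libraries of replicate 2 carry the mark New in their column headers and had the highest of these correlations (0.839). The part of what this mark stands for in that value was not tested. All 6 carcinoma libraries held the Y-linked Ddx3y at 30.3 to 47.99 CPM with Xist, the RNA of the inactive X chromosome, at no more than 0.168 CPM, whereas the macrophage libraries held a mixture, with Xist at 0.09102 to 519 CPM.

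The genes of the sort gates were checked first. Itga6, which encodes CD49f, was at 926 to 1286 CPM (median 1256) in the carcinoma libraries and at 48.1 to 95.5 CPM (median 85.1) in the macrophage libraries. Itgb1, which encodes CD29, was at 1088 to 1364 CPM (median 1315) in carcinoma cells against 507 to 661 CPM (median 604) in macrophages. Ptprc, the gene of CD45, was at 0.695 to 2.67 CPM (median 1.05) in carcinoma cells against 1024 to 1357 CPM (median 1117) in macrophages. Adgre1, the gene of F4/80, was at 0.261 to 2.705 CPM (median 0.607) in carcinoma cells against 469.8 to 937 CPM (median 772) in macrophages. Since the gates used these 4 proteins, their differences describe the sorts and are not findings. Fcer1a, the gene of the chain used to split the macrophages, reached no more than 0.205 CPM in any carcinoma library and 0.185 CPM in any macrophage library and was not tested. Fcer1g, the signaling chain that Fc receptors share, was at 656 to 1067 CPM (median 857) in the macrophages.

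Genes that overlap a gene on the other strand differed between the 2 tables more than other genes did. Among tested genes with 80 to 100% of their exonic bases under exons of the other strand, the median log2 difference (macrophage minus carcinoma) was -7.03 and 57 of 68 (83.8%) were higher in the carcinoma table, against a median of 0.17 and 25.1% of the 11764 genes with no such overlap. With 50 to 80% overlap the median was -1.01 and 50.3% of 147 genes were higher in the carcinoma table. Ilk, the ubiquitous integrin-linked kinase, shares 89.7% of its exonic bases with Taf10 and had 22352 counts over the carcinoma libraries and 34 over the macrophage libraries. Taf10 itself, a subunit of a general transcription factor, had 27106 and 21234 counts. The Mediator subunit gene Med10 (92.8% overlapped) had 14177 and 0 counts, and Slirp, which binds mitochondrial RNA (97.8%), had 8500 and 25. In the other direction, mt-Nd6, with 2.7% of its exonic bases under the opposite-strand gene mt-Nd5, had 607 and 107286 counts. The choice of these genes followed a look at their values. No source used here gives the strand setting or the rule for reads over 2 genes, and for such genes the table and the cell type cannot be told apart. Of the 622 distinct genes on the lists used here, 2 had 30% or more of their exonic bases under the other strand (Twist2 and Cxcl11), and 9 had as much under another gene on their own strand, among them Itgam, Tnfsf12, Tnfsf13, Cfb and C2, whose counts are uncertain in that respect.

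**Figure D1:**
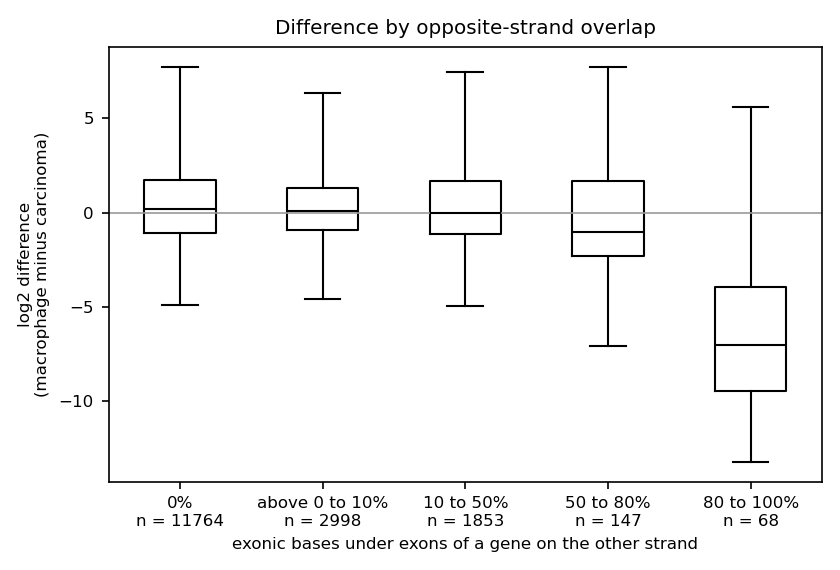
Log2 difference (macrophage minus carcinoma) of the tested genes by the share of their exonic bases that lie under exons of a gene on the other strand; boxes show the quartiles and median, whiskers the 5th and 95th percentiles, n the number of genes. The median was 0.17 in genes with no overlap and -7.03 in the 68 genes with 80 to 100% overlap.

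Most of the transcriptome differed between the cell types. Of 16843 genes tested, 5352 (31.8%) were higher in macrophages and 4308 (25.6%) higher in carcinoma cells at an adjusted p under 0.05 and a difference of at least 2-fold, so 57.4% were called in one direction or the other. At an adjusted p under 0.05 with no minimum size the share was 78.8%. In 69.9% of the genes the 6 libraries of one cell type did not overlap the 6 of the other. With these shares as background, a called gene is the usual case, and the sections that follow read counts of list members against 31.8% and 25.6%. At a level of at least 1 CPM in each of the 6 libraries, 9778 genes were detected in both cell types, 1447 in carcinoma cells alone and 1500 in macrophages alone. The median log2 difference of all genes tested was 0.12. In a grouping chosen after the values were seen, 7 of 7 mitochondrially encoded protein genes were higher in macrophages (median log2 difference 1.54), with summed median levels of 27700 CPM in macrophages and 9320 CPM in carcinoma cells. The class was not uniform, with a log2 difference of 7.18 for mt-Nd6 and 1.55 for mt-Cytb. Of 98 cytosolic ribosomal protein genes, 63 were higher in carcinoma cells and 4 in macrophages (median -1.15), with summed levels of 88300 CPM in carcinoma cells and 38700 CPM in macrophages. The part of these classes in the other differences was not tested.

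Among genes with a mean of at least 100 CPM in the higher cell type, the largest differences toward macrophages were those of H2-Eb1, a class II antigen-presenting chain, Gpr141, March1, Ccr2, Ms4a14, Mgl2, H2-M2, Tlr8, an endosomal RNA receptor, Gpr34, Gpr171, Prune2 and Tifab, with log2 differences from 10.04 to 10.77. Ccr2, the receptor that brings monocytes into tissue, was at 416 to 1212 CPM (median 788) in macrophages and at 0.0974 to 2.02 CPM (median 0.1304) in carcinoma cells, a log2 difference of 10.35 (SE 1.22, adjusted p = 0.000318). Without carcinoma replicate 2 the Ccr2 difference was 12.60. March1, a ubiquitin ligase that acts on class II molecules, was at 158 to 205 CPM (median 178) in macrophages against 0.05799 to 0.342 CPM (median 0.0921) in carcinoma cells. Mgl2, a lectin of tissue macrophages and dendritic cells, was at 149.7 to 512 CPM (median 292) in macrophages against 0 to 0.856 CPM (median 0.0742) in carcinoma cells. Toward carcinoma cells the largest were those of Ilk, the metallothionein Mt2, the adhesion molecule Mpzl2, Areg, Itga3, Itgb4, the Notch feedback regulator Nrarp, Hmga2, the protease Adamts1, Col17a1, Padi3 and Eps8l2, from -9.61 to -6.82. Of these 12, Ilk, Mt2 (73.5% overlapped), Nrarp (79.4%), Mpzl2 (30.7%) and Eps8l2 (32.2%) lie under exons of the other strand. Itga3 and Itgb4, chains of the laminin-binding integrins, were at 1049 to 1341 CPM (median 1313) and 1269 to 1374 CPM (median 1330.3) in carcinoma cells. They were at 0.63 to 14.8 CPM (median 8.63) and 1.43 to 17.2 CPM (median 8.905) in macrophages. Hmga2, a chromatin protein of embryonic and tumor cells, was at 353 to 706 CPM (median 689) in carcinoma cells against 0.771 to 6.74 CPM (median 5.46) in macrophages (log2 difference -7.00, SE 0.76, adjusted p = 0.000227). Padi3, an enzyme that converts arginine to citrulline in hair and epidermal proteins, was at 322 to 364 CPM (median 352) in carcinoma cells against 0.571 to 4.899 CPM (median 3.15) in macrophages.

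Markers of the labelled cell types were high in the cells so labelled, with a small level of the other type in each. Of the 25 epithelial markers, 22 were higher in carcinoma cells, 2 were higher in macrophages and 1 was not called. The list holds Itga6, by which the carcinoma cells were sorted, and without it 21 of 24 were higher in carcinoma cells. The basal keratins Krt5 and Krt14 were at 24081 to 30148 CPM (median 26933) and 32883 to 42968 CPM (median 34338) in carcinoma cells. They were at 52.5 to 706 CPM (median 418) and 94.5 to 1688 CPM (median 956) in macrophages. Trp63, the gene of p63, was at 423 to 507 CPM (median 457) in carcinoma cells against 1.12 to 17.6 CPM (median 10.97) in macrophages. Col17a1, the hemidesmosomal collagen XVII, was at 3064 to 3665 CPM (median 3507) in carcinoma cells against 2.69 to 54.5 CPM (median 31.7) in macrophages. Krt6a, a keratin of activated epidermis, was at 8570.2 to 15333 CPM (median 9980.3) in carcinoma cells against 23.4 to 394 CPM (median 208) in macrophages. In none of these 5 genes did the groups overlap. The summed level of the list was 95998 to 126738 CPM in the carcinoma libraries and 689.9 to 5503 CPM in the macrophage libraries. Expressed as a share of the carcinoma median, the median epithelial marker stood at 4.82%, 2.92% and 0.604% in the FceRIa-negative macrophage replicates 1, 2 and 3 and at 3.51%, 1.93% and 0.333% in the positive ones, and its part in the macrophage values of genes high in carcinoma cells was not tested.

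3 adhesion genes did not follow the epithelial list. Cdh1, the gene of E-cadherin, was at 135 to 1404 CPM (median 416) in macrophages and 201 to 383 CPM (median 259) in carcinoma cells (log2 difference 1.15, SE 0.30, adjusted p = 0.0114), with overlapping groups and no call without carcinoma replicate 1 or 3 (edgeR adjusted p = 0.0568 and 0.0575) or macrophage replicate 3 (log2 difference 0.79). Cldn1, the tight-junction protein claudin 1, was at 4.68 to 255 CPM (median 46.3) in macrophages against 4.1 to 11.7 CPM (median 9.43) in carcinoma cells (log2 difference 3.17, SE 0.41, adjusted p = 0.000488). Epcam, an epithelial adhesion molecule, was at 15.6 to 510.5 CPM (median 103) in macrophages against 169 to 204 CPM (median 189.8) in carcinoma cells (log2 difference -0.17, SE 0.37, adjusted p = 0.69), so its interval ran from -1.06 to 0.72. All 3 are also known from Langerhans cells. Cd207, the langerin gene that defines them, was at 5.58 to 202 CPM (median 40.1) in the macrophage libraries and at no more than 0.168 CPM in the carcinoma libraries. Cd207, Cdh1, Cldn1 and Epcam were each highest in an FceRIa-negative library. Restricted to the FceRIa-positive and reporter-positive libraries, the log2 differences of Cdh1 and Cldn1 turned to -0.56 (adjusted p = 0.114) and -0.94 (adjusted p = 0.00474) by edgeR's quasi-likelihood test. The part of Langerhans cells in these values was not tested.

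All 25 macrophage markers were higher in macrophages, with a median log2 difference of 9.09 and no overlap between the groups. The list holds the sort genes Adgre1 and Ptprc, and the other 23 were all higher in macrophages, with a median of 9.03. Lyz2, the macrophage lysozyme, was at 5806 to 13623 CPM (median 9115) in macrophages against 4.17 to 31.4 CPM (median 6.58) in carcinoma cells. C1qa, a chain of the first complement component, was at 2275 to 4057 CPM (median 3461) in macrophages against 2.12 to 12.8 CPM (median 2.68) in carcinoma cells. Cd74, the invariant chain of class II molecules, was at 9031 to 18529.8 CPM (median 14636) in macrophages against 4.58 to 58.6 CPM (median 5.82) in carcinoma cells. Ctss, a lysosomal protease, was at 4246 to 6039 CPM (median 4948) in macrophages against 1.796 to 14.2 CPM (median 2.53) in carcinoma cells. Csf1r, the receptor that macrophages depend on, was at 2179 to 3037 CPM (median 2531) in macrophages against 1.59 to 11.8 CPM (median 2.68) in carcinoma cells. In the carcinoma libraries the highest values of these 5 genes were all in the reporter-positive replicate 2. The summed macrophage list was 207.2 to 389.9 CPM in carcinoma libraries and 45979 to 63003 CPM in macrophage libraries, and the median marker stood at 0.0764% to 0.409% of its macrophage level in carcinoma libraries, highest in both libraries of replicate 2. In bulk libraries fewer cells of a type and less RNA per cell cannot be told apart.

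**Figure D2:**
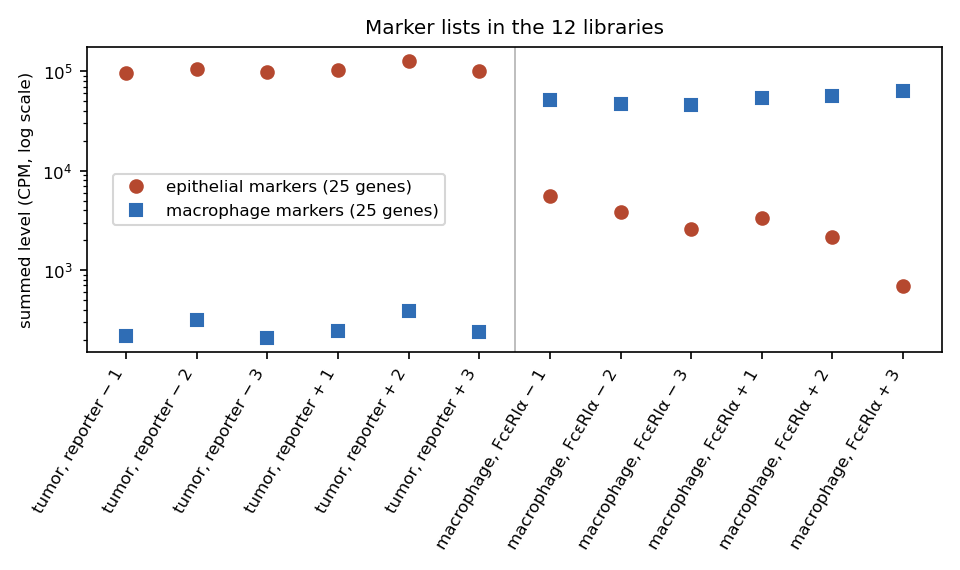
Summed CPM (log scale) of the 25 epithelial markers (circles) and the 25 macrophage markers (squares) in each of the 12 libraries, carcinoma libraries left of the line and macrophage libraries right of it. The epithelial list stands at 689.9 to 5503 CPM in the macrophage libraries, and the macrophage list at 207.2 to 389.9 CPM in the carcinoma libraries.

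Markers of other cells were low beside these. The summed dendritic cell list was 706 to 1252 CPM in macrophage libraries, most of it Itgax, the gene of CD11c, which macrophages also carry and which was at 688 to 989 CPM (median 907). Flt3, the receptor that marks the dendritic lineage, was at 0.7399 to 15.3 CPM (median 3.94) there. All 9 tested dendritic cell markers were higher in macrophages, with a median log2 difference of 8.79. T and NK cell markers summed to 67.3 to 167 CPM in macrophage libraries, of which Cd4 alone, also carried by macrophages, was at 33.7 to 163 CPM (median 92.02). Cd3e, a chain of the T cell receptor complex, was at 0.137 to 3.68 CPM (median 0.236). Of the 5 tested T and NK cell markers, 4 were higher in macrophages and 1 was not called. The summed fibroblast list was 45.3 to 193 CPM in carcinoma and 100.1 to 256 CPM in macrophage libraries, and the neutrophil list 44.0 to 386 and 127 to 610 CPM. Of the 6 tested neutrophil markers, 4 were higher in macrophages and 2 were not called, and of the 8 tested mast cell and basophil markers, 4 were higher in macrophages and 4 were not called. The mast cell and basophil list summed to 0.174 to 7.02 CPM in carcinoma and 5.66 to 24.3 CPM in macrophage libraries. The defining mast cell genes Cpa3 and Tpsb2 were at no more than 1.06 and 1.71 CPM in any carcinoma library and 1.06 and 0.793 CPM in any macrophage library. Their part in the differences below was not tested.

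Transcription factors divided by lineage. Of 18 tested epithelial factors, 18 were higher in carcinoma cells. Of 20 macrophage factors, 17 were higher in macrophages and 3 were not called. Spi1, which encodes PU.1, the factor that specifies myeloid cells, was at 353 to 526 CPM (median 439.9) in macrophages and 0.471 to 2.23 CPM (median 0.753) in carcinoma cells (log2 difference 8.61, SE 0.57, adjusted p = 3.21e-05). Irf8, a partner of PU.1, was at 239.6 to 289.5 CPM (median 269) in macrophages against 0.435 to 3.01 CPM (median 0.871) in carcinoma cells. Ikzf1, a hematopoietic zinc finger factor, was at 140.2 to 160.4 CPM (median 145) in macrophages against 0.0325 to 0.672 CPM (median 0.159) in carcinoma cells. Klf4 and Klf5, factors of the epidermis, were at 238 to 494 CPM (median 308) and 184 to 259.9 CPM (median 229) in carcinoma cells. They were at 23.5 to 104 CPM (median 79.1) and 1.15 to 17.1 CPM (median 6.69) in macrophages. Grhl2, which maintains epithelial identity, was at 104 to 132 CPM (median 129) in carcinoma cells against 0.4296 to 3.16 CPM (median 1.91) in macrophages. The factors of the epithelial to mesenchymal transition split between the cell types. Snai2, also a factor of basal keratinocytes, was at 52.04 to 76.3 CPM (median 71.3) in carcinoma cells against 0.229 to 2.91 CPM (median 1.45) in macrophages. Twist1 was at 2.82 to 4.66 CPM (median 2.96) in carcinoma cells against 0.159 to 0.827 CPM (median 0.217) in macrophages. Zeb2 was at 161 to 426 CPM (median 325) in macrophages against 0.29 to 1.54 CPM (median 0.546) in carcinoma cells. Zeb1 was at 8.81 to 22.2 CPM (median 11.7) in macrophages against 0.05799 to 0.434 CPM (median 0.1696) in carcinoma cells. Of this list of 7, 3 genes were higher in carcinoma cells, 2 in macrophages and 2 were not called.

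More of the listed ligands were higher in carcinoma cells than in macrophages, and more of the listed receptors in macrophages. Of 156 tested ligands, 71 (45.5%) were higher in carcinoma cells and 60 (38.5%) in macrophages, with a median log2 difference of -0.73. Of 186 tested receptors, 108 (58.1%) were higher in macrophages and 47 (25.3%) in carcinoma cells, with a median of 2.12. The genes were listed by family from textbook knowledge, and these counts describe the lists, not all ligands and receptors. Of the 71 ligands higher in carcinoma cells, 32 stood above the median epithelial marker, as a share of their carcinoma level, in all 6 macrophage libraries and 11 in none, and of the 47 receptors, 21 in all 6 and 9 in none. Above 3 times that median in all 6 libraries were 12 of the 71 ligands and 8 of the 47 receptors. Of the 60 ligands higher in macrophages, 39 stood above the median macrophage marker, as a share of their macrophage level, in all 6 carcinoma libraries and 2 in none, and of the 108 receptors, 67 in all 6 and 3 in none. Above 3 times that median in all 6 libraries were 32 of the 60 ligands and 54 of the 108 receptors. For genes at or under the marker's share, a level of their own cannot be told apart from RNA of the other cell type.

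**Figure D3:**
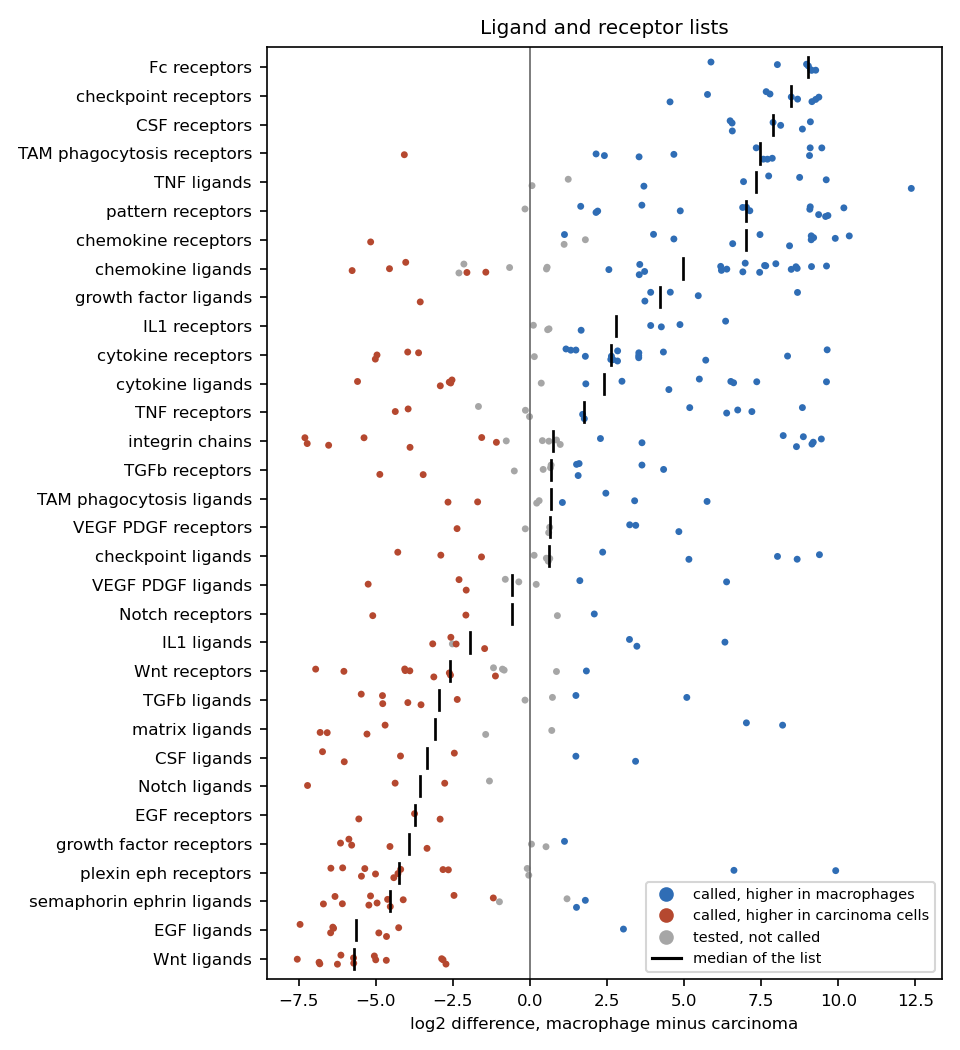
Log2 difference (macrophage minus carcinoma) of every tested gene of the ligand and receptor lists, 1 row a list ordered by its median (black bar); blue and red points were called higher in macrophages and in carcinoma cells, grey points were not called. Wnt and EGF ligands lie at the carcinoma end, Fc, checkpoint and CSF receptors at the macrophage end.

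The EGF family, whose ligands drive keratinocyte growth, was higher in carcinoma cells for ligands and receptors alike. Of its 8 ligands, 7 were higher in carcinoma cells and 1 in macrophages, and all 3 tested receptors were higher in carcinoma cells. Areg (amphiregulin) was at 213 to 783 CPM (median 706) in carcinoma cells and 1.17 to 6.19 CPM (median 2.74) in macrophages (log2 difference -7.45, SE 0.80, adjusted p = 0.000212). Its lowest carcinoma values were in replicate 2, and its macrophage values stood at 0.166% to 0.877% of the carcinoma median, below the median epithelial marker in each library. Epgn (epigen) was at 195 to 348 CPM (median 304) in carcinoma cells against 0.543 to 7.16 CPM (median 2.95) in macrophages. Hbegf (heparin-binding EGF) was at 148 to 405 CPM (median 313) in carcinoma cells against 4.69 to 15.7 CPM (median 10.7) in macrophages. Nrg1 (neuregulin 1), a ligand of ERBB3, was at 185 to 256 CPM (median 239) in carcinoma cells against 6.303 to 13.2 CPM (median 8.53) in macrophages. Tgfa, the gene of transforming growth factor alpha, was at 166 to 247 CPM (median 220.5) in carcinoma cells against 0.3998 to 5.15 CPM (median 2.301) in macrophages. Ereg (epiregulin) was at 52.3 to 215 CPM (median 142) in carcinoma cells against 0.793 to 2.46 CPM (median 1.53) in macrophages. Per kilobase of exon the carcinoma medians were 581 for Areg, 168 for Epgn, 64.7 for Hbegf, 34.5 for Ereg, 33.97 for Tgfa and 23.1 CPM for Nrg1. The receptor gene Egfr was at 77.5 to 90.9 CPM (median 82.6) in carcinoma cells against 3.18 to 9.45 CPM (median 6.17) in macrophages (log2 difference -3.74, SE 0.08, adjusted p = 2e-06). Erbb2, the partner without a ligand of its own, was at 86.6 to 99.2 CPM (median 95.3) in carcinoma cells against 0.286 to 3.88 CPM (median 1.85) in macrophages. Erbb3 was at 56.9 to 82.8 CPM (median 63.3) in carcinoma cells against 6.397 to 9.65 CPM (median 9.18) in macrophages. Erbb4 had 0 counts in all 12 libraries, which allows up to 0.0161 CPM over the carcinoma and 0.0131 CPM over the macrophage libraries by counting error alone. Egf itself was the exception, at 1.37 to 2.38 CPM (median 1.87) in macrophages and 0.08699 to 0.571 CPM (median 0.192) in carcinoma cells.

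Wnt ligands, which signal through Frizzled receptors, were higher in carcinoma cells in 13 of 13 cases. Wnt4 was at 212 to 362 CPM (median 275) in carcinoma cells against 0.4296 to 9.499 CPM (median 3.48) in macrophages. Wnt5a was at 188 to 249.8 CPM (median 207) in carcinoma cells against 0.716 to 7.63 CPM (median 3.82) in macrophages. Wnt10a was at 136 to 227 CPM (median 188) in carcinoma cells against 0.258 to 2.799 CPM (median 1.83) in macrophages. Wnt3a was at 42.5 to 59.9 CPM (median 53.1) in carcinoma cells against 0.0286 to 0.746 CPM (median 0.544) in macrophages. In no macrophage library did Wnt4, Wnt10a or Wnt3a exceed the median epithelial marker as a share of the carcinoma level. Of 14 Wnt receptors and co-receptors, 9 were higher in carcinoma cells and 1 in macrophages. Fzd10 was at 35.9 to 60.7 CPM (median 49.6) in carcinoma cells against 0.114 to 1.52 CPM (median 0.708) in macrophages. Fzd6 was at 16.4 to 21.1 CPM (median 20.2) in carcinoma cells against 0 to 0.323 CPM (median 0.157) in macrophages. Fzd7 was at 35.9 to 46.97 CPM (median 43.9) in macrophages and 8.95 to 15.6 CPM (median 13.2) in carcinoma cells (log2 difference 1.83, SE 0.14, adjusted p = 5.48e-05). The co-receptor gene Lrp5 was at 126 to 159 CPM (median 145) in carcinoma cells against 42.2 to 80.05 CPM (median 74.1) in macrophages, its log2 difference falling under 2-fold (-0.91) without macrophage replicate 2. Lrp6 was at 51.8 to 116 CPM (median 83.6) in macrophages against 42.1 to 50.4 CPM (median 45.9) in carcinoma cells without being called.

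Notch ligands were likewise higher in carcinoma cells in 3 of 4 cases. Jag2 was at 187 to 340.1 CPM (median 279) in carcinoma cells against 9.72 to 17.9 CPM (median 11.96) in macrophages. Jag1 was at 143 to 184 CPM (median 172) in carcinoma cells against 12.9 to 32.1 CPM (median 26.1) in macrophages. Dll1 was at 40.9 to 76.5 CPM (median 59.4) in carcinoma cells against 0.0573 to 0.721 CPM (median 0.399) in macrophages. The receptor gene Notch1, which promotes keratinocyte differentiation, was at 187 to 255 CPM (median 207) in carcinoma cells against 29.2 to 69.7 CPM (median 51.6) in macrophages. Notch3 was at 24.2 to 83.96 CPM (median 45.3) in carcinoma cells against 0.172 to 2.35 CPM (median 1.06) in macrophages. Notch2 was at 51.02 to 91.5 CPM (median 63.98) in macrophages against 30.8 to 45.03 CPM (median 35.7) in carcinoma cells and was not called, its difference of 0.89 being under 2-fold. Semaphorins, ephrins and their receptors, which guide cells, leaned the same way, with 11 of 15 tested ligands and 10 of 14 receptors higher in carcinoma cells. Efnb1 (ephrin B1) was at 234 to 362 CPM (median 350.5) in carcinoma cells against 6.3 to 10.8 CPM (median 8.42) in macrophages. Sema3c was at 140.3 to 256 CPM (median 247) in carcinoma cells against 0.286 to 3.96 CPM (median 2.09) in macrophages. The receptor gene Epha2 was at 117 to 271 CPM (median 209.5) in carcinoma cells against 4.02 to 19.8 CPM (median 8.53) in macrophages. The plexins divided. Plxnd1 was at 199.7 to 553 CPM (median 411) in macrophages against 2.69 to 7.09 CPM (median 3.49) in carcinoma cells. Plxnc1 was at 147 to 213 CPM (median 172) in macrophages against 0.02896 to 0.437 CPM (median 0.155) in carcinoma cells. Plxnb1 was at 127 to 155 CPM (median 136) in carcinoma cells against 1.199 to 5.203 CPM (median 3.05) in macrophages.

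The TGF-beta system was split between the cells by gene. Tgfb1, its most widely made ligand, was at 175 to 386 CPM (median 309.6) in macrophages and 98.03 to 109.9 CPM (median 102) in carcinoma cells (log2 difference 1.49, SE 0.23, adjusted p = 0.001), with no overlap. Tgfb3 was at 25.8 to 53.6 CPM (median 36.7) in carcinoma cells against 1.86 to 3.47 CPM (median 2.27) in macrophages (log2 difference -3.96, SE 0.28, adjusted p = 4.08e-05). Tgfb2 was at 1.91 to 10.8 CPM (median 3.74) in carcinoma cells against 0.229 to 0.569 CPM (median 0.454) in macrophages. Per kilobase of exon the carcinoma medians were 20.3 CPM for Tgfb1, 10.9 for Tgfb3 and 0.645 for Tgfb2, and the macrophage medians 61.4, 0.671 and 0.0784. The signaling receptor genes were both higher in macrophages. Tgfbr1 was at 495 to 1014 CPM (median 779) in macrophages against 30.5 to 45.2 CPM (median 41.1) in carcinoma cells (log2 difference 4.34, SE 0.26, adjusted p = 2.01e-05). Tgfbr2 was at 253 to 476 CPM (median 327) in macrophages against 114 to 137 CPM (median 123) in carcinoma cells (log2 difference 1.51, SE 0.11, adjusted p = 4e-05). Tgfbr3 (betaglycan), which presents the ligand, was at 5.34 to 11.6 CPM (median 8.41) in carcinoma cells against 0.371 to 1.201 CPM (median 0.767) in macrophages. Bmpr1a, a receptor of the related bone morphogenetic proteins, was at 80.8 to 105 CPM (median 96.5) in carcinoma cells against 1.06 to 5.05 CPM (median 3.35) in macrophages. Of the 10 tested ligands of the superfamily, 6 were higher in carcinoma cells, 2 (Tgfb1 and Gdf15) were higher in macrophages and 2 (Inhba and Bmp4) were not called. Besides Tgfb2 and Tgfb3, those higher in carcinoma cells were Inhbb (23.9 to 37.5 CPM against 0.372 to 2.001 CPM), a chain of activin B, Bmp2 (6.14 to 8.401 CPM against 0.0228 to 0.3202 CPM), Bmp7 (16.9 to 63.9 CPM against 0.314 to 1.84 CPM) and Gdf11 (0.811 to 2.53 CPM against 0.137 to 0.4002 CPM). Gdf15, a cytokine of cell stress, was at 0.978 to 19.9 CPM (median 7.39) in macrophages against 0.0869 to 0.437 CPM (median 0.257) in carcinoma cells.

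Of the 11 tested genes that store and release latent TGF-beta, 5 were higher in carcinoma cells, 1 was higher in macrophages and 5 were not called. The anchor of the latent complex on myeloid cells, Nrros, was at 179 to 257 CPM (median 219) in macrophages and 0.227 to 1.24 CPM (median 0.406) in carcinoma cells (log2 difference 8.68, SE 0.49, adjusted p = 1.72e-05). Its counterparts in the matrix, Ltbp1 and Ltbp4, were at 68.9 to 111 CPM (median 102) and 44.5 to 51.6 CPM (median 49.4) in carcinoma cells. They were at 0.228 to 2.54 CPM (median 1.74) and 0.771 to 1.91 CPM (median 1.22) in macrophages. Itgb6, the epithelial integrin chain that activates latent TGF-beta, was at 17.5 to 23.3 CPM (median 21.5) in carcinoma cells against 0.0286 to 0.842 CPM (median 0.574) in macrophages (log2 difference -5.38, SE 0.75, adjusted p = 0.000683). Its partner chain gene Itgav was at 92.6 to 178 CPM (median 169) in macrophages and 67.8 to 88.2 CPM (median 83.3) in carcinoma cells, a log2 difference of 0.98 that was not called for being under 2-fold. Of the 10 SMAD and SMAD-control genes, 7 were not called. Smad3, a transducer of the signal, was at 46.04 to 54.4 CPM (median 49.7) in carcinoma cells against 13.9 to 24.4 CPM (median 19.7) in macrophages. Skil, a repressor of SMAD activity that the pathway also induces, was at 166 to 232 CPM (median 186) in macrophages against 35.95 to 62.9 CPM (median 49.9) in carcinoma cells. Smad2 was at 48.96 to 59.3 CPM (median 55.2) in carcinoma cells against 47.5 to 54.6 CPM (median 50.2) in macrophages, with an interval of -0.29 to 0.13 around a log2 difference of -0.08.

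Receptors of the colony-stimulating factors, which control myeloid growth, were higher in macrophages in 7 of 7 cases, and 4 of their 6 ligands were higher in carcinoma cells. Csf3 (G-CSF) was at 30.2 to 49.8 CPM (median 36.4) in carcinoma cells and 0.249 to 0.5997 CPM (median 0.275) in macrophages (log2 difference -6.72, SE 0.27, adjusted p = 5.67e-06). Its receptor gene Csf3r was at 83.1 to 289 CPM (median 156) in macrophages against 0.941 to 2.49 CPM (median 2.04) in carcinoma cells. Csf3r is also a neutrophil marker and is 1 of the 4 of 6 tested neutrophil markers that were higher in macrophages. Csf3r gave no more than 2.49 CPM of that list in any carcinoma library. With Csf3r included, the list summed to 127 to 610 CPM in macrophage and 44.0 to 386 CPM in carcinoma libraries. Among its members Mmp8, a neutrophil collagenase, was at 7.78 to 29.7 CPM in macrophage and 0.0362 to 0.203 CPM in carcinoma libraries, and Ly6g, which defines neutrophils, was at 0.0228 to 0.274 CPM (median 0.111) in the macrophage libraries. The part of neutrophils in the Csf3r difference was not tested. Csf2 (GM-CSF) was at 0.874 to 6.07 CPM (median 5.34) in carcinoma cells against 0 to 0.228 CPM (median 0.0371) in macrophages. Its receptor chain genes Csf2ra and Csf2rb were at 308 to 435 CPM (median 362) and 396 to 779 CPM (median 578) in macrophages. In carcinoma cells they were at 3.56 to 4.62 CPM (median 3.99) and 1.49 to 3.15 CPM (median 1.93). Csf2rb and Csf2rb2 are near-identical copies, so reads may be split between them. The ligands of the CSF1 receptor took opposite sides. Csf1 was at 38.5 to 107 CPM (median 77.4) in macrophages against 4.84 to 11.1 CPM (median 7.49) in carcinoma cells (log2 difference 3.43, SE 0.30, adjusted p = 8.74e-05). Il34 was at 0.376 to 2.98 CPM (median 0.748) in carcinoma cells against 0.0573 to 0.347 CPM (median 0.178) in macrophages. Kitl, the stem cell factor, was at 14.96 to 19.6 CPM (median 16.96) in carcinoma cells against 0.428 to 1.502 CPM (median 0.773) in macrophages. Its receptor gene Kit, at 2.405 to 16.3 CPM (median 7.37) in macrophages against 0.029 to 0.274 CPM (median 0.0698) in carcinoma cells, is also a mast cell marker. The mast cell and basophil list, 4 of whose 8 tested members were higher in macrophages, summed to 5.66 to 24.3 CPM in macrophage and 0.174 to 7.02 CPM in carcinoma libraries. Kit is 1 of those 4 members and a large part of the macrophage sum, whose median was 12.1 CPM. Levels of Cpa3 and Tpsb2 are given above. Mcpt8, a basophil protease of the same list, was at 0.08005 to 2.51 CPM in macrophage and 0 to 0.0724 CPM in carcinoma libraries. The part of these cells in the Kit difference was not tested.

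Of 8 tested interleukin 1 family ligands, 4 were higher in carcinoma cells and 3 in macrophages, and of 8 receptors 5 were higher in macrophages and 0 in carcinoma cells. Il1b, the secreted inflammatory form, was at 519 to 1897 CPM (median 1002) in macrophages against 6.701 to 24.8 CPM (median 8.45) in carcinoma cells (log2 difference 6.32, SE 0.70, adjusted p = 0.000243). Il1rn, the receptor antagonist, was at 324 to 518 CPM (median 396) in macrophages against 32.04 to 50.1 CPM (median 35.3) in carcinoma cells. Il1a was at 30.4 to 106 CPM (median 73.9) in carcinoma cells against 6.64 to 51.8 CPM (median 21.8) in macrophages, with overlapping groups, a difference of -1.47 (SE 0.56, adjusted p = 0.0472) that was lost without carcinoma replicate 1 or 3 (edgeR adjusted p = 0.105 and 0.0997) and without macrophage replicate 1 or 2 (0.131 and 0.0997). Il33, an alarmin of barrier epithelia, was at 7.79 to 108 CPM (median 14.3) in carcinoma cells against 0.745 to 4.85 CPM (median 3.599) in macrophages (log2 difference -3.15, SE 0.95, adjusted p = 0.02). The highest Il33 value was in the reporter-positive replicate 2, at 108 CPM, and the other 5 carcinoma libraries lay between 7.79 and 14.4 CPM. In the reporter-negative and FceRIa-negative libraries alone Il33 was not called (log2 difference -1.57, edgeR adjusted p = 0.0579), nor without macrophage replicate 2 (edgeR adjusted p = 0.0532). Its receptor gene Il1rl1 was at 1.201 to 8.58 CPM (median 3.07) in macrophages and 0.0362 to 0.685 CPM (median 0.0991) in carcinoma cells (log2 difference 4.26, SE 0.73, adjusted p = 0.00165). The shared co-receptor gene Il1rap was at 27.9 to 72.97 CPM (median 42.4) in macrophages and 42.1 to 49.97 CPM (median 43.6) in carcinoma cells, with an interval of -0.27 to 0.50. Il1r2, a decoy receptor, was at 59.3 to 574 CPM (median 184) in macrophages against 2.11 to 4.402 CPM (median 3.21) in carcinoma cells. Interleukin 36 gamma, listed in the annotation as Il1f9, was at 41.3 to 65.9 CPM (median 47.7) in carcinoma cells against 1.37 to 20.2 CPM (median 7.37) in macrophages, a call lost in the reporter-negative and FceRIa-negative libraries alone (edgeR adjusted p = 0.0793). Its receptor gene Il1rl2 was at 91.3 to 173 CPM (median 124) in macrophages against 36.8 to 48.7 CPM (median 41.3) in carcinoma cells.

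Among other cytokines, 8 of 14 tested ligands were higher in macrophages and 5 in carcinoma cells, and of 21 receptors 16 were higher in macrophages and 4 in carcinoma cells. Osm (oncostatin M) was at 44.8 to 407 CPM (median 257) in macrophages against 1.07 to 5.24 CPM (median 1.56) in carcinoma cells (log2 difference 6.60, SE 0.95, adjusted p = 0.000766). Its receptor gene Osmr was at 10.6 to 15.5 CPM (median 13.7) in carcinoma cells against 0.315 to 1.07 CPM (median 0.983) in macrophages (log2 difference -3.96, SE 0.38, adjusted p = 0.000135). Il6st, the signaling chain the receptor shares, was at 33.3 to 46.8 CPM (median 46.1) in carcinoma cells and 38.1 to 59.5 CPM (median 46.4) in macrophages, with an interval of -0.23 to 0.52. Lif, a related ligand, was at 10.2 to 28.9 CPM (median 24.6) in carcinoma cells against 0.933 to 7.25 CPM (median 3.17) in macrophages. Lifr was at 46.2 to 101 CPM (median 66.2) in macrophages against 1.04 to 2.65 CPM (median 1.17) in carcinoma cells. Tslp, an epithelial alarmin, was at 2.47 to 15.1 CPM (median 5.38) in carcinoma cells against 0.274 to 2.33 CPM (median 0.861) in macrophages, not called without macrophage replicate 1 (edgeR adjusted p = 0.0579). Its receptor chain genes Crlf2 and Il7r were at 42.7 to 73.4 CPM (median 63.8) and 37.5 to 68.1 CPM (median 48.1) in macrophages. In carcinoma cells they were at 8.601 to 11.3 CPM (median 9.35) and 0 to 0.205 CPM (median 0.02898). Beside Osmr, the receptor chains higher in carcinoma cells were Il17rc of the interleukin 17 family and Il20rb and Il22ra1 of the interleukin 20 family. Il17ra, another chain of the interleukin 17 family, was higher in macrophages. Its carcinoma libraries stood at 7.64% to 9.5% of its macrophage median. Il17rc was at 79.3 to 126 CPM (median 85.2) in carcinoma cells against 0.8305 to 4.799 CPM (median 2.55) in macrophages. Il20rb was at 20.1 to 44.2 CPM (median 22.6) in carcinoma cells against 1.31 to 3.12 CPM (median 2.39) in macrophages. Il22ra1 was at 4.14 to 8.83 CPM (median 5.59) in carcinoma cells against 0.0528 to 0.398 CPM (median 0.142) in macrophages. The interferon gamma receptor gene Ifngr1 was at 327 to 444 CPM (median 369) in macrophages against 17.3 to 23.3 CPM (median 19.2) in carcinoma cells (log2 difference 4.33, SE 0.15, adjusted p = 4.36e-06).

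Chemokine genes were mostly higher in macrophages, with 18 of 28 ligands higher there and 5 in carcinoma cells. For the receptors, 11 of 14 tested receptors were higher in macrophages and 1 in carcinoma cells. Cxcl16, a membrane-bound ligand, was at 622 to 878 CPM (median 800.4) in macrophages against 54.3 to 76.9 CPM (median 63.9) in carcinoma cells. Ccl9 was at 236 to 526 CPM (median 356) in macrophages against 0.319 to 1.096 CPM (median 0.647) in carcinoma cells. Ccl6 was at 156 to 506 CPM (median 231) in macrophages against 0.493 to 1.16 CPM (median 0.6995) in carcinoma cells. The monocyte attractants Ccl2, Ccl7 and Ccl12 were at 22.3 to 101 CPM (median 40.8), 7.71 to 112 CPM (median 43.4) and 30.8 to 247 CPM (median 153) in macrophages. They were at 3.65 to 20.4 CPM (median 7.16), 0.145 to 2.26 CPM (median 0.351) and 0.029 to 0.479 CPM (median 0.0905) in carcinoma cells. Among neutrophil attractants, Cxcl2 was at 82.3 to 1038 CPM (median 548) in macrophages against 14.1 to 59.7 CPM (median 49.1) in carcinoma cells (log2 difference 3.55, SE 0.84, adjusted p = 0.00745). Cxcl5 was at 9.76 to 17.7 CPM (median 11.9) in carcinoma cells against 0.0528 to 3.31 CPM (median 0.333) in macrophages. Cxcl1 was at 95.6 to 433 CPM (median 402) in carcinoma cells against 4.44 to 133 CPM (median 57.9) in macrophages, overlapping and not called (adjusted p = 0.0504). Cxcl14, a chemokine of skin epithelium, was at 63.1 to 86.1 CPM (median 70.6) in carcinoma cells against 1.58 to 4.55 CPM (median 3.12) in macrophages (log2 difference -4.55, SE 0.35, adjusted p = 5.51e-05). The receptor gene Ccr1 was at 537 to 890.2 CPM (median 724) in macrophages against 0.682 to 2.36 CPM (median 1.14) in carcinoma cells. Cx3cr1 was at 372 to 917 CPM (median 712) in macrophages against 0.682 to 1.85 CPM (median 0.956) in carcinoma cells. Cxcr4 was at 79.9 to 398 CPM (median 222) in macrophages against 0.724 to 2.81 CPM (median 1.15) in carcinoma cells. The single receptor gene higher in carcinoma cells was Ackr3, an atypical receptor that takes up CXCL12, at 109 to 221 CPM (median 211) in carcinoma cells against 2.199 to 10.9 CPM (median 4.52) in macrophages (log2 difference -5.16, SE 0.52, adjusted p = 0.000159). Cxcl12 itself was at 0.174 to 0.8399 CPM (median 0.407) in carcinoma cells and 0.229 to 1.39 CPM (median 0.603) in macrophages and was not called.

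Ligands of the TNF family were higher in macrophages in 6 of 8 tested cases and in carcinoma cells in 0, and of 12 receptors 7 were higher in macrophages and 2 in carcinoma cells. Tnfsf12 (TWEAK) was at 18.3 to 35.3 CPM (median 26.3) in macrophages against 0.0649 to 0.205 CPM (median 0.112) in carcinoma cells, with 48.3% of its exonic bases shared with another gene model on its strand. Its receptor gene Tnfrsf12a was at 264 to 333 CPM (median 307) in carcinoma cells against 11.2 to 18.1 CPM (median 14.4) in macrophages (log2 difference -4.36, SE 0.13, adjusted p = 2.77e-06). Tnf was at 34.6 to 217 CPM (median 69.4) in macrophages and 14.3 to 59.9 CPM (median 41.8) in carcinoma cells, overlapping and not called. Its receptor genes differed from each other. Tnfrsf1a was at 172 to 214 CPM (median 179) in carcinoma cells and 132 to 221 CPM (median 184) in macrophages, with an interval of -0.35 to 0.33. Tnfrsf1b was at 200.1 to 410.1 CPM (median 278) in macrophages against 1.65 to 7.46 CPM (median 2.47) in carcinoma cells. Tnfrsf10b, the receptor of TRAIL, was at 22.5 to 34.2 CPM (median 25.5) in carcinoma cells against 1.29 to 2.18 CPM (median 1.58) in macrophages.

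Inhibitory receptors of myeloid cells were higher in macrophages in 9 of 9 cases, and their ligands divided, with 5 of 12 tested higher in macrophages and 3 in carcinoma cells. Cd200, which restrains myeloid cells, was at 11.7 to 46.7 CPM (median 27.9) in carcinoma cells against 0.5997 to 2.14 CPM (median 1.499) in macrophages (log2 difference -4.28, SE 0.39, adjusted p = 0.000111). Its receptor gene Cd200r1 was at 18.8 to 44.3 CPM (median 32.96) in macrophages against 0 to 0.205 CPM (median 0.0145) in carcinoma cells (log2 difference 9.37, SE 0.66, adjusted p = 4.07e-05). Without carcinoma replicate 2 the Cd200r1 difference was 11.68. Cd47, the signal against engulfment, was higher in macrophages themselves, at 173 to 257 CPM (median 239) in macrophages against 40.8 to 48.2 CPM (median 43.3) in carcinoma cells (log2 difference 2.36, SE 0.14, adjusted p = 2.07e-05), as was its receptor gene Sirpa, at 1293 to 2097 CPM (median 1677) in macrophages against 26.3 to 37.4 CPM (median 32.5) in carcinoma cells. Cd24a, a further such signal, was at 464 to 629.8 CPM (median 591) in carcinoma cells against 18.6 to 204 CPM (median 52.9) in macrophages. Cd274 (PD-L1) was at 18.1 to 96.4 CPM (median 53.6) in macrophages against 1.13 to 1.99 CPM (median 1.51) in carcinoma cells (log2 difference 5.16, SE 0.47, adjusted p = 0.00011). Vsir (VISTA) was at 426 to 820.3 CPM (median 652) in macrophages against 0.844 to 3.12 CPM (median 1.08) in carcinoma cells. Havcr2 (TIM-3) was at 289 to 362 CPM (median 328) in macrophages against 1.13 to 2.56 CPM (median 1.49) in carcinoma cells. Lilrb4a was at 195 to 452 CPM (median 294) in macrophages against 0.543 to 1.25 CPM (median 0.846) in carcinoma cells.

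Receptors for dying cells and their fragments were listed together with receptors of complement and of formyl peptides. Of these 12 genes, 11 were higher in macrophages. Axl was at 818 to 1224 CPM (median 1086) in macrophages against 73.5 to 123 CPM (median 95.4) in carcinoma cells. Mertk was at 103 to 378 CPM (median 221) in macrophages against 0.724 to 1.61 CPM (median 1.18) in carcinoma cells. Trem2, a lipid receptor, was at 163 to 376 CPM (median 298) in macrophages against 0.0869 to 1.16 CPM (median 0.3398) in carcinoma cells. The third kinase of this family, Tyro3, was at 16.2 to 30.5 CPM (median 21.7) in carcinoma cells against 0.628 to 2.05 CPM (median 1.08) in macrophages (log2 difference -4.07, SE 0.41, adjusted p = 0.000156). Gas6, their ligand, was at 16.9 to 313 CPM (median 138) in macrophages against 6.72 to 33.2 CPM (median 9.901) in carcinoma cells. Anxa1, a ligand of formyl peptide receptors, was at 940.3 to 1905 CPM (median 1348) in carcinoma cells against 367 to 456 CPM (median 411) in macrophages (log2 difference -1.69, SE 0.10, adjusted p = 2e-05). The receptor gene Fpr2 was at 9.72 to 55.3 CPM (median 33.2) in macrophages against 0.101 to 0.227 CPM (median 0.126) in carcinoma cells. Mif, which binds CD74, was at 458 to 647 CPM (median 471) in carcinoma cells against 46.6 to 103 CPM (median 82.2) in macrophages (log2 difference -2.65, SE 0.24, adjusted p = 0.000112).

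Growth factor receptors other than those of the EGF family were higher in carcinoma cells in 5 of 8 tested cases, and 5 of 6 tested ligands were higher in macrophages. Met, the receptor of hepatocyte growth factor, was at 174 to 277 CPM (median 246) in carcinoma cells against 6.67 to 13.2 CPM (median 10.1) in macrophages (log2 difference -4.54, SE 0.20, adjusted p = 7.44e-06). Its ligand gene Hgf was at 17.2 to 57.1 CPM (median 36.3) in macrophages against 0.02896 to 0.2397 CPM (median 0.0506) in carcinoma cells (log2 difference 8.68, SE 0.59, adjusted p = 3.42e-05). The fibroblast growth factor receptor genes Fgfr2 and Fgfr3 were at 93.4 to 134 CPM (median 113) and 85.9 to 115 CPM (median 97.8) in carcinoma cells. They were at 0.2005 to 2.66 CPM (median 1.89) and 0.286 to 4.43 CPM (median 1.405) in macrophages. Of the 8 tested VEGF and PDGF ligands, 3 were higher in carcinoma cells and 2 in macrophages, and of 7 receptors 3 were higher in macrophages and 1 in carcinoma cells. Vegfa, which drives vessel growth, was at 217 to 489 CPM (median 275) in carcinoma cells against 10.5 to 115 CPM (median 82.7) in macrophages (log2 difference -2.06, SE 0.59, adjusted p = 0.0165). Its co-receptor gene Nrp1 was at 37.1 to 221 CPM (median 142) in macrophages against 3.56 to 5.54 CPM (median 4.85) in carcinoma cells (log2 difference 4.83, SE 0.20, adjusted p = 6.03e-06). Pdgfc was at 7.28 to 83.4 CPM (median 41.7) in macrophages against 0.232 to 0.924 CPM (median 0.524) in carcinoma cells. Its receptor gene Pdgfra, a fibroblast marker, was at 5.92 to 7.79 CPM (median 6.496) in carcinoma cells against 0.476 to 3.95 CPM (median 0.899) in macrophages.

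Of 8 tested matrix ligands, 4 were higher in carcinoma cells and 2 in macrophages. Tnc (tenascin C) was at 226 to 301 CPM (median 242) in carcinoma cells against 4.897 to 18.1 CPM (median 7.94) in macrophages. The tenascin-binding integrin chain Itga9 was at 53.03 to 227 CPM (median 167) in macrophages against 0.174 to 0.685 CPM (median 0.336) in carcinoma cells. Fn1 (fibronectin) was at 344 to 2479.8 CPM (median 1622) in macrophages against 6.26 to 20.1 CPM (median 9.57) in carcinoma cells (log2 difference 7.02, SE 0.76, adjusted p = 0.000221). Spp1 (osteopontin) was at 1235 to 1878 CPM (median 1643) in macrophages against 1.25 to 14 CPM (median 2.66) in carcinoma cells (log2 difference 8.19, SE 0.99, adjusted p = 0.000348). Of 20 integrin and matrix receptor genes, 8 were higher in macrophages, among them the leukocyte chains Itgb2 (525 to 702 CPM against 0.398 to 2.43 CPM) and Itgal (279 to 507 CPM against 0.348 to 1.16 CPM) and the vitronectin receptor chain Itgb5 (587 to 789.8 CPM against 50.97 to 75.3 CPM). Of the 7 higher in carcinoma cells, Itga6 and Itgb1 are genes of the carcinoma sort, and without them 5 of 18 were higher in carcinoma cells. Itga2, a collagen receptor chain, was at 66.8 to 138 CPM (median 126) in carcinoma cells against 0.172 to 1.98 CPM (median 1.33) in macrophages.

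Counted over 134 ligand and receptor pairs of 112 ligands and 93 receptors, 25 had the ligand higher in carcinoma cells and the receptor higher in macrophages, and 9 the reverse. In 32 pairs both genes were higher in macrophages and in 18 both in carcinoma cells. Each gene was detected in at least 1 cell type in 20 of the 25, 8 of the 9, 25 of the 32 and all 18 pairs. Of the listed ligands taken singly, 45.5% were higher in carcinoma cells and 38.5% in macrophages. For the listed receptors the shares were 25.3% and 58.1%. Whether the pair counts depart from these shares was not tested. By detection alone the counts lay closer together. The ligand was detected in carcinoma cells and the receptor in macrophages in 69 pairs, the reverse in 50, both in carcinoma cells in 62 and both in macrophages in 69. Pairs share members, so these counts are not independent. The 18 pairs within carcinoma cells held 6 Egfr pairs, 3 Notch1 pairs and 4 ephrin pairs. Those within macrophages held Csf1 with Csf1r, Tgfb1 with Tgfbr1 and Tgfbr2, Gas6 with Axl and Mertk, and 14 pairs of a CC or CXC chemokine with its receptor. Among the 14, Cxcr6, the receptor gene paired with Cxcl16, was detected in neither cell type. From carcinoma cells to macrophages ran Csf3 with Csf3r, Cd200 with Cd200r1, Mif with Cd74, Sema3c with Plxnd1, Tnc with Itga9, Il33 with Il1rl1 and Vegfa with Nrp1. The pairs from macrophages to carcinoma cells held Osm with Osmr, Hgf with Met, Tnfsf12 with Tnfrsf12a and Sema4d with Plxnb1. Message levels do not show that the proteins met.

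**Figure D4:**
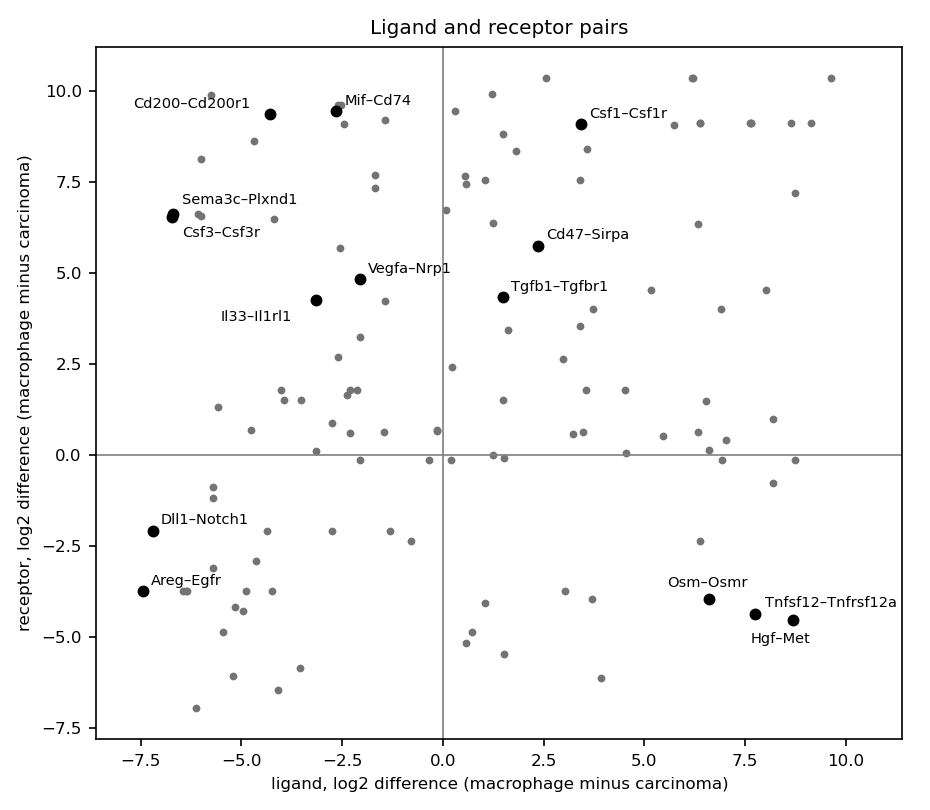
Each point is a ligand and receptor pair with both genes tested, placed by the log2 difference (macrophage minus carcinoma) of the ligand on the horizontal and of the receptor on the vertical axis, with 14 pairs named. Upper left are pairs from carcinoma cells to macrophages such as Csf3 with Csf3r, and lower right pairs from macrophages to carcinoma cells such as Hgf with Met.

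**Figure D5:**
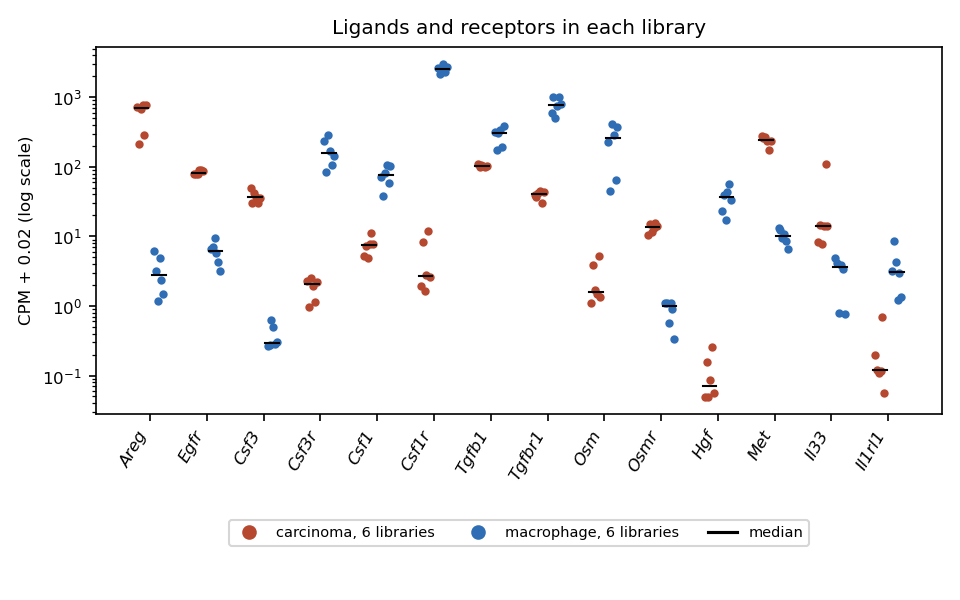
CPM + 0.02 (log scale) of 7 ligands, each followed by a receptor, in the 6 carcinoma libraries (red) and the 6 macrophage libraries (blue), with the median as a black bar. For Hgf and Met the groups lie on opposite sides, and for Il33 1 carcinoma library stands at 108 CPM.

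Lists of phagocyte functions were mostly higher in macrophages. All 7 class II genes were higher there. H2-Aa was at 5727 to 15332 CPM (median 10659) in macrophages against 3.62 to 44.8 CPM (median 4.07) in carcinoma cells. The class II activator gene Ciita was at 204 to 528 CPM (median 375) in macrophages against 0 to 2.02 CPM (median 0.236) in carcinoma cells. All 9 class I genes were higher there too, by less, with a median log2 difference of 2.11. B2m was at 1809 to 2550.2 CPM (median 2028) in macrophages against 111 to 231 CPM (median 124) in carcinoma cells (log2 difference 3.87, SE 0.26, adjusted p = 3.57e-05). The reads of H2-K1 and H2-D1 may be shared with other H2 genes. H2-K1 was at 588 to 829 CPM (median 644) in macrophages against 170.3 to 249.4 CPM (median 192) in carcinoma cells. H2-D1 was at 909 to 2239.5 CPM (median 1608) in macrophages against 563 to 704 CPM (median 638) in carcinoma cells. Of 15 pattern receptors, 14 were higher in macrophages. Tlr13 was at 168 to 430.1 CPM (median 318) in macrophages against 0.227 to 0.753 CPM (median 0.453) in carcinoma cells. Clec7a, a receptor of fungal glucan, was at 261 to 469 CPM (median 354) in macrophages against 0.203 to 1.75 CPM (median 0.359) in carcinoma cells. Nod2, a sensor of bacterial wall fragments, was at 25.6 to 36.3 CPM (median 30.01) in carcinoma cells and 17.02 to 37.9 CPM (median 25.4) in macrophages, with an interval of -0.62 to 0.31. All 7 tested Fc receptor genes were higher in macrophages, led by Fcgr2b (1726 to 3823 CPM against 2.14 to 10.03 CPM) and Fcgr3 (909 to 1713 CPM against 1.42 to 4.14 CPM), which resemble each other in sequence. Of 15 complement genes, 11 were higher in macrophages. C3 was at 158 to 357 CPM (median 266) in macrophages against 3.302 to 7.91 CPM (median 4.92) in carcinoma cells. C1s1, a protease of the first component, was at 4.78 to 35.7 CPM (median 9.42) in carcinoma cells against 0.315 to 1.21 CPM (median 0.62496) in macrophages (log2 difference -4.43, SE 0.76, adjusted p = 0.00169).

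Of 17 matrix proteases and inhibitors, 8 were higher in macrophages and 7 in carcinoma cells. Mmp12, the macrophage elastase, was at 1131 to 1504 CPM (median 1252) in macrophages against 2.15 to 14.1 CPM (median 3.74) in carcinoma cells. Mmp14, a membrane-bound collagenase, was at 520.5 to 865 CPM (median 677) in macrophages against 182 to 209 CPM (median 204) in carcinoma cells. Mmp3 and Mmp10, the stromelysins, were at 231 to 315 CPM (median 284) and 48.6 to 169 CPM (median 77.9) in carcinoma cells against 1.09 to 6.76 CPM (median 2.703) and 1.17 to 7.24 CPM (median 2.64) in macrophages. In prostaglandin synthesis, Ptges, the terminal synthase of prostaglandin E2, was at 303 to 499 CPM (median 451) in carcinoma cells against 3.322 to 18.5 CPM (median 7.47) in macrophages (log2 difference -5.48, SE 0.63, adjusted p = 0.000279). The upstream enzyme gene Ptgs2 was at 179 to 779 CPM (median 605) in carcinoma cells against 23.5 to 410.3 CPM (median 210.4) in macrophages without being called. The receptor gene Ptger4 was at 32.5 to 66.2 CPM (median 45.9) in macrophages against 2.05 to 4.03 CPM (median 3.41) in carcinoma cells. The leukotriene gene Alox5ap was at 127 to 317 CPM (median 197) in macrophages against 0.869 to 1.54 CPM (median 1.12) in carcinoma cells. Apoe, a lipid carrier, was at 7502 to 26697 CPM (median 19122) in macrophages against 91.4 to 303 CPM (median 129) in carcinoma cells (log2 difference 6.75, SE 0.52, adjusted p = 5.6e-05). Fabp5, an epidermal fatty acid-binding protein, was at 1131 to 5177 CPM (median 1735) in carcinoma cells against 136 to 461 CPM (median 374) in macrophages. Tfrc, which takes up iron, was at 96.5 to 172 CPM (median 159.5) in carcinoma cells against 31.6 to 71.7 CPM (median 37.8) in macrophages. Slc40a1, which exports it, was at 5.45 to 77.4 CPM (median 25.5) in macrophages against 0.2597 to 1.198 CPM (median 0.344) in carcinoma cells.

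Of 20 cell cycle genes, 18 were higher in carcinoma cells. Ccnd1 (cyclin D1) was at 728 to 838 CPM (median 787) in carcinoma cells against 25.3 to 74.5 CPM (median 47.8) in macrophages (log2 difference -3.89, SE 0.22, adjusted p = 1.66e-05). Top2a, which untangles replicated DNA, was at 283 to 524 CPM (median 444) in carcinoma cells against 58.6 to 174 CPM (median 109) in macrophages. Cdk1, the mitotic kinase, was at 145 to 251 CPM (median 202) in carcinoma cells against 21.9 to 37.5 CPM (median 29.04) in macrophages. The cell cycle inhibitor genes Cdkn2a and Cdkn2b were also higher, at 27.4 to 90.4 CPM (median 46.2) and 18.8 to 37.9 CPM (median 24.1) in carcinoma cells against 0.143 to 2.11 CPM (median 1.38) and 0.229 to 0.846 CPM (median 0.633) in macrophages. Mki67, a marker of cycling cells, was at 157 to 315 CPM (median 263) in carcinoma cells against 105 to 269 CPM (median 165) in macrophages, overlapping and not called. At the other extreme were genes with nearly equal levels. The interval of the log2 difference lay within 0.5 of 0 for 1335 genes, and the narrowest intervals at a mean of 100 CPM or more were those of Emc3 and Bcap31 of the endoplasmic reticulum, the ubiquitin ligase scaffold Cul3, the membrane-sorting gene Chmp3, the transcription factor gene Zbtb7b and Sumo3, with differences from -0.30 to 0.19. Of 12 reference genes in common use, 6 were higher in carcinoma cells and 1 in macrophages. Gapdh was at 1577 to 2167 CPM (median 1731) in carcinoma cells against 392 to 753 CPM (median 652) in macrophages (log2 difference -1.54, SE 0.22, adjusted p = 0.000693). Gusb was at 676 to 854 CPM (median 733) in macrophages against 43.2 to 53.5 CPM (median 44.5) in carcinoma cells (log2 difference 4.03, SE 0.11, adjusted p = 2.71e-06). Actb, for beta-actin, was at 3215 to 4448 CPM (median 3803) in carcinoma cells and 2809.9 to 4115 CPM (median 3619.6) in macrophages, with an interval of -0.55 to 0.36.

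Promoters were read for letters of factors that act in these cells, PU.1 being the myeloid factor and AP-1 a factor of many cell types. The 250 bases before each RefSeq gene start (build GRCm38.p6) were searched on both strands, and 11618 tested genes had such a window. GAGGAAGT, a form of the PU.1 site, was in 5.07% of 3375 genes higher in macrophages, 2.5% of 2885 genes higher in carcinoma cells and 2.26% of 5358 genes called in neither, against 2.79% of all 27025 promoters. It was in 3.13% of all tested genes and in 9.0% of the 800 genes higher in macrophages by 64-fold or more. TGANTCA, the AP-1 site, was in 7.08%, 8.25% and 4.52% of the same 3 groups, in 6.19% of tested genes, in 7.82% of all promoters and in 9.62% of the 800 genes. TGTGGT, a RUNX site, was in 16.1%, 13.2% and 11.9%, in 13.4% of tested genes, in 15.9% of all promoters and in 21.1% of the 800 genes. TATAAA, the TATA box, was in 10.3%, 9.57% and 7.09%, in 8.62% of tested genes, in 14.3% of all promoters and in 14.8% of the 800 genes. AACCGGTT, a Grainyhead-like site, was in 0.119%, 0.208% and 0.28%, in 0.215% of tested genes, in 0.137% of all promoters and in 0.375% of the 800 genes. All 5 letter strings were in a larger share of the 800 genes than of all tested genes, the Grainyhead-like string in only 3 of the 800. Among the 517 genes higher in carcinoma cells by 32-fold or more, the shares were 9.48% for AP-1, 16.2% for RUNX and 13.2% for TATA. For PU.1 and Grainyhead-like letters they were 2.13% and 0.193%. Among the 800 and the 517 genes, the AP-1, RUNX and TATA letters were thus above their share of tested genes. Over all 2885 genes higher in carcinoma cells the RUNX letters were not, at 13.2% against 13.4%. None of the 5 letter strings is contained in another. A match is a run of letters and not a shown binding site.

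Of the printed promoters, 3 with the PU.1 letters are shown because their genes were high in macrophages in every library, and 3 with the AP-1 letters because they stand on both sides of the comparison, capitals marking the matched letters on either strand and distances being counted to the first matched base. Fcgr4, an activating Fc receptor at 24.2 to 56.5 CPM (median 42.4) in macrophages and 0 to 0.171 CPM (median 0.07603) in carcinoma cells, has its match 24 bases before the start (chr1:171018676-171018925, plus strand). C1qc has it 195 bases before the start (chr4:136892915-136893164, minus strand) and Havcr2 8 bases before (chr11:46454681-46454930, plus strand).
Fcgr4: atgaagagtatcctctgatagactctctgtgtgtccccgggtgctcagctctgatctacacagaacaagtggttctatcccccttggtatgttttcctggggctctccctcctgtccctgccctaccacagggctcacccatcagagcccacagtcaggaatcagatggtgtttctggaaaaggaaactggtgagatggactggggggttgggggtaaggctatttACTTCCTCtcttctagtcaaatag
C1qc: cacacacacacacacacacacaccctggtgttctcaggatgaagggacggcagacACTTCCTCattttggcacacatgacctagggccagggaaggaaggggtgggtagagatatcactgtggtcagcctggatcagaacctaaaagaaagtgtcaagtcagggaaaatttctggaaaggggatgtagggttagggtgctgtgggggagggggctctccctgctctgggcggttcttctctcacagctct
Havcr2: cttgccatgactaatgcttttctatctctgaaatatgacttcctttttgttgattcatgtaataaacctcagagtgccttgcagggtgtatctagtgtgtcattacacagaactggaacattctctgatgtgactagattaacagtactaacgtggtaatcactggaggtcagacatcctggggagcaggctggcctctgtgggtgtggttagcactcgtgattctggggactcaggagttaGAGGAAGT
Met has its AP-1 match 54 bases before the start (chr6:17463707-17463956, plus strand) and Mmp3 46 bases before (chr9:7445572-7445821, plus strand), both genes being higher in carcinoma cells. Cd68, a lysosomal protein of macrophages at 339 to 752 CPM (median 478) in macrophages against 2.55 to 11.44 CPM (median 3.45) in carcinoma cells, has 2 matches, 149 and 24 bases before the start (chr11:69666171-69666420, minus strand).
Met: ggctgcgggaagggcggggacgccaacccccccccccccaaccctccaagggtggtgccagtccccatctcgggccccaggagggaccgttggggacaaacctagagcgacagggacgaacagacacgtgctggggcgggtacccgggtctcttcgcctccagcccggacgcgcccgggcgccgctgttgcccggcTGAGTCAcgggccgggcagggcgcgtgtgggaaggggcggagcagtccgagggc
Mmp3: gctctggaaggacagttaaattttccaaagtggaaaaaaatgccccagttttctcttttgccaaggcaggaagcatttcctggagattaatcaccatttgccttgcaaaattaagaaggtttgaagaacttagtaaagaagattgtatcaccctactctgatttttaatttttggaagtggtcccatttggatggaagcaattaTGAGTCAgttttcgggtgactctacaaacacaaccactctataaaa
Cd68: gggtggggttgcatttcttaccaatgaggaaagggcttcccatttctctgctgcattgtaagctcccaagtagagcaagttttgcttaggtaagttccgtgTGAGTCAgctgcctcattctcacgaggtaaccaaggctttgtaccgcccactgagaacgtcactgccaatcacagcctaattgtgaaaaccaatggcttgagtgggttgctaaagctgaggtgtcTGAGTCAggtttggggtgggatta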

How the data were processed

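RNA from 12 libraries of sorted cells was prepared with an Illumina TruSeq kit, per the labels' protocols. The authors deposited whole-number read counts per gene in 2 tables, 1 for each cell type, with no normalization; FastQC, STAR, mm10 and GRCm38 are named in the submitters' processing notes, but the sources used here give no counting tool, strand setting or annotation. The tables were joined on 53801 gene identifiers. The symbol Mcub that the macrophage table gives to the identifier of Areg was taken as Areg by that identifier. No row lacked a gene, and 4 count columns of the tables were not used.

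The negative and positive library of 1 replicate number were summed within a cell type because they deviated together, with the limits given above. After filterByExpr and TMM scaling, edgeR 4.0.16 (R 4.3.3) fitted 3 macrophage sums against 3 carcinoma sums by the quasi-likelihood test. Benjamini-Hochberg adjustment was over 16843 genes. Called means an adjusted p under 0.05 and at least 2-fold; log2 differences are macrophage minus carcinoma with their standard error. Total counts of at least 27951632 per library set the precision, and 3 counts over a cell type correspond to 0.0161 CPM (carcinoma) and 0.0131 CPM (macrophage), for counting error only.

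Exon lengths and overlaps came from GENCODE M21 (GRCm38), which held 53706 of the identifiers, and promoters from RefSeq (GRCm38.p6), which held 460 of 622 list genes. The members and lists were chosen with earlier results of these data known. The text names the sort genes, the 12 largest differences in each direction at a mean of 100 CPM or more, the 6 most alike genes, and up to 6 called members a list and direction together with members of pairs; list members that were not called, the genes of the overlap check and the printed promoters were chosen after their values were seen. Alternatives were other scalings, filters, thresholds, DESeq2 1.42.0, separate libraries, carcinoma replicates 1 and 3 summed as 1, each sort fraction alone, a replicate block and leaving out each replicate. A few list members are counted in their lists but not reported here by name.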

Additional observations from a re-analysis of the deposited data

Results flagged for a closer look

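Gene lists and sort genes were looked at for a library far from the other 5 of its cell type, by Dixon's test at the 95% level, in 30 groups of 6 libraries. Chance marks about 1 group in 20, and 6 were marked, 5 of them for the same library. The reporter-positive carcinoma replicate 2 stood highest for the summed epithelial markers (126738.4 CPM, against 106013.8 in the next library and a median of 101016.2), the dendritic cell markers (4.5539 CPM, next 2.5538, median 1.7098), the mast cell and basophil markers (7.0191 CPM, next 0.7056, median 0.2748) and the neutrophil markers (386.0863 CPM, next 88.8284, median 82.4439). It stood lowest for Itga6, at 925.5661 CPM (next 1250.3836, median 1256.2476). Among the macrophage libraries the FceRIa-positive replicate 1 stood highest for the summed fibroblast markers, at 256.4134 CPM (next 152.5998, median 139.3279). Without carcinoma replicate 2, 5755 genes were higher in macrophages and 4514 in carcinoma cells, and without macrophage replicate 1 the counts were 5457 and 4439.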

How the results depend on the processing

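Over 23 other settings, 1 of them chosen after seeing the data, the count of 5352 genes higher in macrophages ran from 3665 to 7085 and that of 4308 genes higher in carcinoma cells from 2779 to 6204. A minimum of 4-fold moved the carcinoma count by over 1.5 times, to 2779, through its stricter threshold, and the macrophage count to 3665. Leaving out each replicate gave 5358 to 5755 and 4325 to 4524 genes, and moved the fold of named called genes by over 1.5 times in 54 of 221 without carcinoma replicate 2, 25 without macrophage replicate 1 and 3 to 9 without each of the others. With carcinoma replicates 1 and 3 summed as 1 the counts were 5561 and 4659, and the calls of Cdh1 (adjusted p = 0.0606) and Il1a (adjusted p = 0.0964) were lost. A replicate block gave, for the 6 sums, 5264 and 4267 genes and for the 12 libraries 4368 and 3931; numbers are shared across cell types only as labels (mean correlation of deviations -0.0504, 0.0229 and 0.0795 for the 3 numbers). DESeq2 gave 5298 and 4392. The setting chosen after seeing the data, limited to genes with under 10% opposite-strand overlap, gave 4677 and 3725, of which 4677 and 3665 were also called over all genes. Other scalings moved the median of all genes by -0.087 to 0.05, and 1 gene was called in opposite directions, in the positive libraries alone. Of 221 named genes called, 212 kept the call in every setting that tested them, the 3 changes of threshold aside. The log2 difference turned to -0.23 for C2 in the negative libraries alone, and to -0.56 for Cdh1 and -0.94 for Cldn1 in the positive libraries alone; the cause was not tested. Levels near 0.0161 CPM in carcinoma cells or 0.0131 CPM in macrophages cannot be told from 0 at this depth.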
